A study of Mus musculus with 46 samples.

Results

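mmu-miR-192, mmu-miR-194 and mmu-miR-215 were examined as 3 of the 334 mouse microRNAs (miRNAs) on a custom array, chosen by name because they are known as miRNAs induced by the tumor suppressor p53 and made from a pair of gene clusters. Each miRNA had 4 spots per array, so these miRNAs held 12 of 1336 spots. The array was hybridised with total RNA of 41 mammary tumors, each from an individual mouse of 1 of 8 engineered models, and of 5 normal mammary glands, with 1 array per sample. The 3 models that the study treats as basal were C3TAg (viral T antigens under the C3(1) promoter, FVB strain, 5 tumors), p53-/- (floxed p53 deleted by MMTV-cre in a transplant model, Balb/C, 7 tumors) and Brca1-/-p53+/- (floxed Brca1 deleted by MMTV-cre with 1 intact p53 copy in the germ line, 129B6/FVB, 5 tumors). The 5 models treated as luminal were all FVB and carried an oncogene under the mouse mammary tumor virus (MMTV) promoter, namely the growth factor Wnt1 in MMTV-Wnt (4 tumors), polyoma middle T antigen in MMTV-PymT (6), Her2/neu in MMTV-H2N (5), Hras in MMTV-Hras (5) and the transcription factor Myc in MMTV-C-Myc (4). The normal glands came from FVB females late in pregnancy, and the labels do not say whether each came from its own animal, so p-values that use them measure only the spread between these samples. The MMTV promoter is active mainly in mammary epithelium and also at ectopic sites, and cre under it leaves p53 intact in cells without the promoter's activity. Model, strain and transplantation coincide for p53-/- tumors, and model and strain for Brca1-/-p53+/- tumors, and cannot be told apart there.

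A miRNA guides a silencing complex to messenger RNAs that match its seed, bases 2 to 8 from the 5′ end. In human cells p53 raises transcription of the clusters that hold miR-192, miR-194 and miR-215, and the products restrain the cell cycle, in part through transcripts for replication and mitosis and, in human myeloma cells, through the p53 antagonist MDM2. The family is best known from epithelium of gut, liver and kidney. In these models p53 is deleted in the tumor cells of p53-/-, bound by the T antigen in C3TAg and reduced by 1 copy in Brca1-/-p53+/-, whereas the MMTV oncogene models carry no engineered p53 change.

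The mature sequences are shown because miR-192 and miR-215 share their seed while miR-194 has another. They are the RefSeq 5p sequences of assembly GRCm38.p6, written 5′ to 3′ with the seed in capitals. The array names carry no arm, and the probe sequences were not used here, so the assignment to the 5p arm follows the current names.
mmu-miR-192-5p: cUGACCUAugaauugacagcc
mmu-miR-215-5p: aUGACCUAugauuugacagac
mmu-miR-194-5p: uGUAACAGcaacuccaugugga

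miR-192 and miR-215 were identical at 18 of 21 positions and differed by C1A, A12U and C20A, with the miR-192 base first and positions counted from the 5′ end. No other miRNA among the 246 of 334 array names that matched RefSeq had the seed of either, and neither did any other of 1679 mature mouse names. Whether the probes for miR-192 and miR-215 bind each other's target was not tested. The hairpins lie in pairs on the plus strand. Mir194-1 (chr1:185313319-185313385) lies 195 bases before Mir215 (chr1:185313581-185313692), both within the span of the protein-coding gene Iars2, which encodes mitochondrial isoleucyl-tRNA synthetase. Mir194-2 (chr19:6264643-6264728) lies 115 bases before Mir192 (chr19:6264844-6264932), with no other annotated gene across them. Whether the Iars2 positions are exonic or intronic was not annotated in the tables used. Both miR-194 hairpins give the same mature sequence, so the miR-194 signal sums both clusters, while miR-192 and miR-215 each report on 1 of them.

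Signal over background differed strongly between groups, which bears on every value below. The floor of an array was taken as the 5th percentile of all its spots, and a miRNA was called above it when the geometric mean of its 4 spots exceeded 3 times the floor. In C3TAg the median of all spots lay 0.085 to 0.54 log2 units over the floor and in p53-/- 0.39 to 0.83, but in Brca1-/-p53+/- it lay 2.00 to 3.22 over it, in luminal tumors 1.78 to 5.82 and in normal gland 2.98 to 4.10. Between 31 and 85 of 334 miRNAs cleared the floor in C3TAg and between 91 and 111 in p53-/-, against 168 to 304 in the remaining groups. On C3TAg and p53-/- arrays a level near the array median is therefore a level near the floor. The tissue label was checked with the 5 miRNAs of the miR-200 family, which mark epithelium. All 5 were above the floor on every luminal and normal gland array, in 18 of 25 combinations of miRNA and array in Brca1-/-p53+/-, in 28 of 35 in p53-/- and in 8 of 25 in C3TAg. Their summed signal ran from 1466 to 475275 in MMTV-Wnt, against 9707 to 24394 in MMTV-C-Myc and 51038 to 139014 in normal gland. At least 1 MMTV-Wnt tumor thus lay below every array of the other luminal models. The lower detection was not particular to epithelium. In C3TAg 8 of 20 combinations were above the floor for fibroblast and smooth muscle miRNAs, 6 of 15 for leukocyte and 2 of 15 for erythroid miRNAs. In p53-/- the counts were 15 of 28, 14 of 21 and 11 of 21, and in normal gland all combinations were above it. In whole tissue, fewer cells of a type and less RNA per cell cannot be told apart.

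The 3 miRNAs differed in how often they were detected. miR-194 was above the floor on 30 of 46 arrays, miR-192 on 9 and miR-215 on 3, against a median of 30 arrays over all miRNAs. On 16 arrays none of them was above the floor, on 20 only miR-194, on 7 miR-192 with miR-194, on 1 miR-215 with miR-194, and on 2 all of them. Every array with miR-192 or miR-215 above the floor thus also had miR-194 above it. The 16 arrays with none were 5 C3TAg, 7 p53-/-, 2 MMTV-C-Myc and 2 Brca1-/-p53+/- tumors. Outside C3TAg and p53-/-, most arrays therefore had miR-194 above the floor whatever the other members read. With 2 times the floor as the limit the counts were 34, 14 and 9 arrays.

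**Figure D1:**
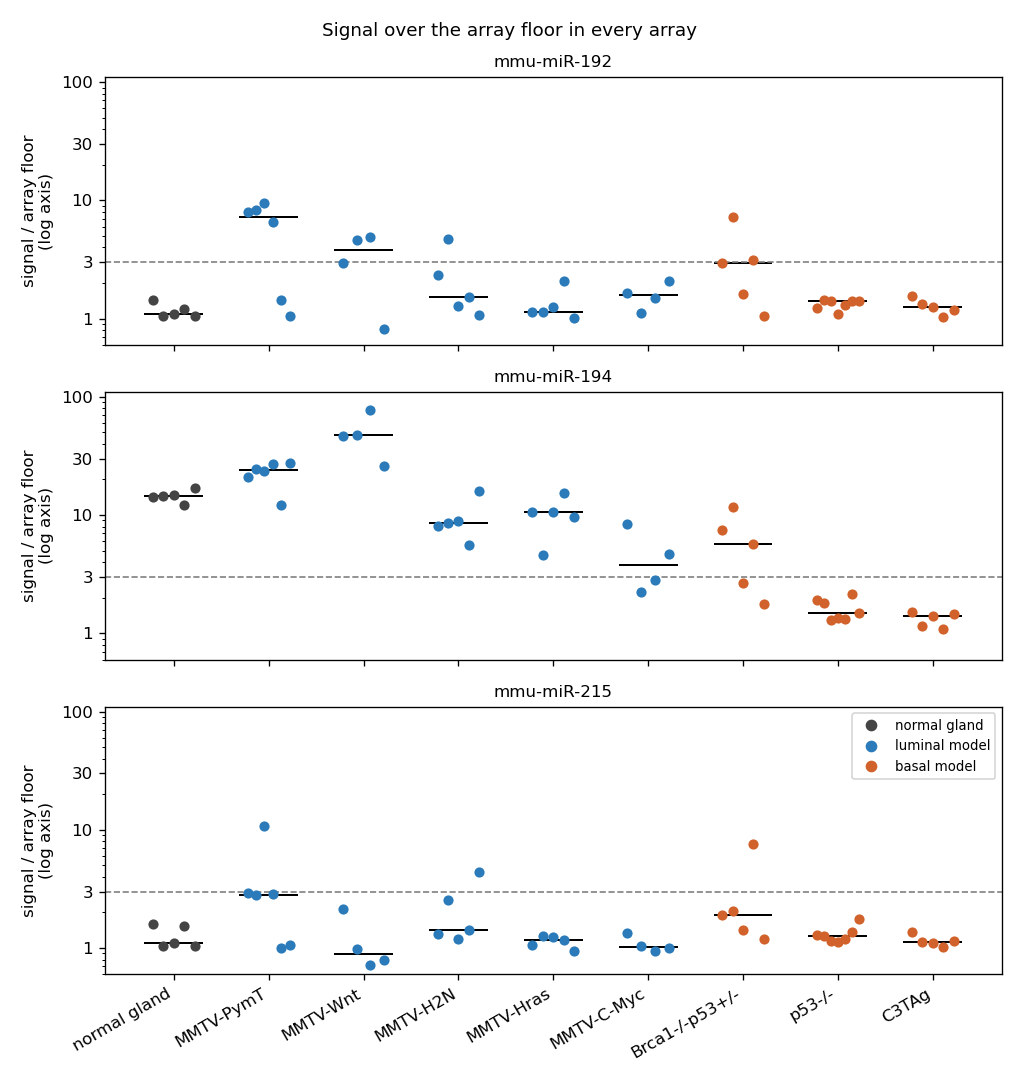
Signal of mmu-miR-192, mmu-miR-194 and mmu-miR-215 divided by the array floor (log axis) for every array, by group, with the group median as a black line and 3 times the floor as a dashed line. All 5 normal gland arrays lie above the line for miR-194 and below it for the other 2 miRNAs, and all 12 p53-/- and C3TAg arrays lie below it in each panel.

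miR-194, which both clusters encode, was the one member measured in most groups. In normal gland its signal in array units was 308, 308, 422, 419 and 489, or 12.1 to 16.9 times the floor. In MMTV-Wnt tumors it was 1814, 1510, 1953 and 691, or 25.8 to 76.6 times the floor. All 4 MMTV-Wnt values lay above all 5 normal gland values, and 3 of them lay above every array of the other groups. The 6 MMTV-PymT tumors ran from 400 over a median of 619 to 915 (12.1 to 27.3 times the floor). MMTV-H2N tumors had 170, 527, 272, 205 and 866 (5.62 to 16.1 times the floor), and MMTV-Hras tumors had 274, 186, 341, 507 and 287 (4.62 to 15.4 times). These groups overlapped one another and normal gland in signal, and all of their arrays were above the floor.

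The remaining groups were only partly above the floor or not at all for miR-194. MMTV-C-Myc tumors had signals of 293, 89.2, 93.6 and 287, and 2 of 4 were above the floor. Brca1-/-p53+/- tumors had 194, 239, 94.8, 828.99 and 178, and 3 of 5 were above it, at 7.41, 11.7 and 5.65 times the floor. The 4 spots of replicate 1 were uneven and read 73.6, 135, 152 and 930. The 7 p53-/- tumors ran from 98.3 over a median of 119 to 167, or 1.31 to 2.13 times the floor, and C3TAg tumors had 177, 119.6, 337, 144 and 134, or 1.10 to 1.51 times. None of these 12 arrays, from the models with p53 deleted or bound, was above the floor for miR-194. That was not particular to it, because of 191 miRNAs above the floor on all 5 normal gland arrays, 50 (26.2%) were above it on none of the 12. In Brca1-/-p53+/- tumors, 1 of the 191 was above the floor on no array.

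Relative to the array median, the group means of miR-194 lay close together, while single arrays ran from −1.98 to 1.37. No C3TAg or p53-/- array was above the floor for miR-194, so their values near 0 are readings near the floor. The log2 signal minus the array median had group means from 0.43 ± 0.27 (SD, n = 4) in MMTV-Wnt to −0.59 ± 0.68 (n = 5) in MMTV-Hras, with normal gland at 0.27 ± 0.35 (n = 5), p53-/- at 0.11 ± 0.30 (n = 7) and C3TAg at 0.02 ± 0.10 (n = 5). None of the 36 pairs of groups differed for miR-194 by limma with Benjamini-Hochberg adjustment at 0.05 on this scale, while over all miRNAs 56.2% of the pairwise tests passed. Relative to the array floor, 29 of 36 pairs passed, against 54.2% over all miRNAs. The order on that scale was MMTV-Wnt, MMTV-PymT, normal gland, MMTV-Hras, MMTV-H2N, Brca1-/-p53+/-, MMTV-C-Myc, p53-/- and C3TAg. Among neighbours in it, MMTV-Wnt exceeded MMTV-PymT by 1.07 ± 0.40 (SE, limma adjusted p = 0.0288) and MMTV-C-Myc exceeded p53-/- (limma adjusted p = 0.00368, with no fold given because no p53-/- array was above the floor), and the other 6 pairs of neighbours did not differ beyond their spread (limma adjusted p 0.0657 to 0.999).

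**Figure D2:**
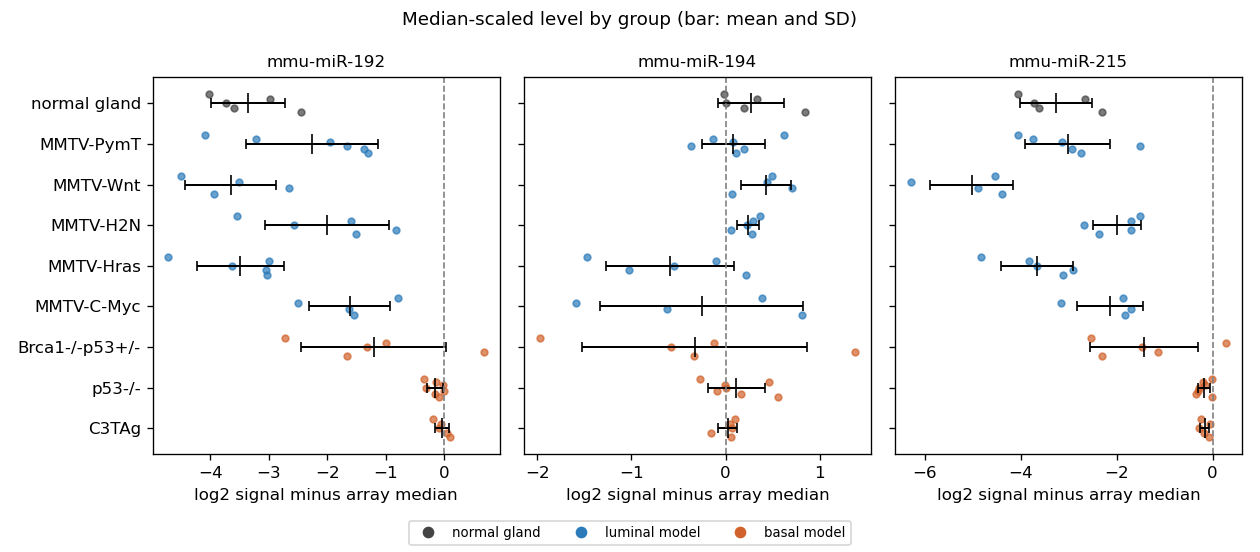
Log2 signal minus the array median for every array (points) with group mean and SD (bar), by group, for each of the 3 miRNAs. For mmu-miR-194 the group means lie between −0.59 and 0.43. For all 3 miRNAs the p53-/- and C3TAg arrays cluster near 0, where the array median itself lies near the floor.

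Set against normal gland in the fit with 1 mean per group, the median-scaled difference of miR-194 was −0.86 ± 0.40 (SE) in MMTV-Hras (limma adjusted p = 0.141), −0.60 ± 0.40 in Brca1-/-p53+/- (0.172), −0.52 ± 0.42 in MMTV-C-Myc (0.272) and 0.15 ± 0.42 in MMTV-Wnt (0.796). No model passed for miR-194 with all arrays, and Brca1-/-p53+/- passed at −1.02 (limma adjusted p = 0.0148) without its replicate 2. The share of all miRNAs that passed was 18.6% in MMTV-Hras, 70.1% in Brca1-/-p53+/-, 61.7% in MMTV-C-Myc, 46.1% in MMTV-Wnt, 35.9% in MMTV-PymT, 51.2% in MMTV-H2N, 74.0% in p53-/- and 73.7% in C3TAg. Scaled to the floor, miR-194 was higher than in normal gland in MMTV-Wnt by 1.67 ± 0.41 (limma adjusted p = 0.000757) and lower in MMTV-C-Myc, at −1.86 ± 0.41 (0.000192), and in Brca1-/-p53+/-, at −1.61 ± 0.39 (0.000456), and the value in MMTV-Hras was −0.60 ± 0.39 (0.343). On that scale 54.5%, 50.9%, 62.3% and 18.0% of all miRNAs passed in these 4 comparisons. The median difference over all miRNAs was 1.21, −0.71, −0.88 and 0.20, so much of each array set shifted the same way. No fold is given for p53-/- or C3TAg against normal gland, since the lowest signal that could be told from the floor on those arrays already exceeded the normal gland level once scaled to the median.

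Within the luminal models, MMTV-Wnt tumors stood highest for miR-194. Against the mean of the other 4 luminal models the difference was 2.31 ± 0.34 (SE, limma adjusted p = 1.79e-07) with floor scaling, where 63.8% of all miRNAs passed, and 0.55 ± 0.34 (limma adjusted p = 0.165) with median scaling, where 50.6% passed. MMTV-C-Myc differed by −2.10 ± 0.34 (limma adjusted p = 1.13e-06) with floor scaling (64.1% of all passed) and by −0.29 ± 0.34 (0.489) with median scaling (56.0% passed). The median difference over all miRNAs was 1.42 for MMTV-Wnt and −1.36 for MMTV-C-Myc with floor scaling. With median scaling it was −0.34 and 0.45. MMTV-Hras differed by −0.71 ± 0.32 (limma adjusted p = 0.0626) with median scaling, where 44.6% of all miRNAs passed, and passed without its own replicate 1 (−0.91, limma adjusted p = 0.0274) or without MMTV-C-Myc replicate 3 (−0.82, 0.0232). Without MMTV-C-Myc replicate 3 the median-scaled MMTV-C-Myc difference turned to 0.15. Values on 7 arrays carry only 3 digits, and these were all 4 MMTV-Wnt arrays, MMTV-Hras replicates 1 and 2 and MMTV-C-Myc replicate 4. Among those 7, the MMTV-Wnt signals of 691 to 1953 lay above 274 and 186 in MMTV-Hras and 287 in MMTV-C-Myc. With this difference in precision as a term in the fit, the floor-scaled MMTV-Wnt difference was 2.57 ± 0.50 and the median-scaled one 0.12 ± 0.50.

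miR-192, from the cluster on chromosome 19, was above the floor in 4 of 8 models and on no normal gland array. In MMTV-PymT tumors its signal was 256, 183, 226 and 176 in replicates 1 to 4, at 6.58 to 9.58 times the floor, and 47.5 and 35.0 in the other 2, at 1.43 and 1.05 times. Normal gland had 31.6, 22.3, 31.7, 42.1 and 30.3, or 1.05 to 1.45 times the floor. The MMTV-PymT tumors thus fell into 4 with miR-192 clear of the floor and 2 at the normal gland level. Those 2, replicates 5 and 6, were also the arrays of the group with the least signal over background. Their array medians lay 3.73 and 4.15 log2 units over the floor, against 4.29 to 4.92 in replicates 1 to 4. On them 231 and 233 miRNAs were above the floor, against 245 to 271. Whether this bears on the split was not tested. With floor scaling the measured values of MMTV-PymT passed as higher than those of normal gland (limma adjusted p = 0.00131, 43.1% of all miRNAs passed), and with median scaling they did not pass (0.069). The floor-scaled median difference over all miRNAs was 0.44. No fold or lower bound is given, because no normal gland array was above the floor and the lowest signal told from it, scaled to the median, exceeded the MMTV-PymT mean. The median-scaled comparison passed without MMTV-PymT replicate 5 (limma adjusted p = 0.0355), MMTV-PymT replicate 6 (0.0107) or normal gland replicate 1 (0.0398). Against the mean of the other 4 luminal models, of whose 18 arrays 3 were above the floor, MMTV-PymT passed as higher with floor scaling (limma adjusted p = 0.00568, 43.4% passed) and did not pass with median scaling (0.386, 38.3% passed). The floor-scaled median over all miRNAs was 0.71 there. The same 2 tumors were at the floor for miR-215 (0.99 and 1.07 times, against 2.78 to 10.7 times in the other 4) but not for miR-194 (12.1 and 27.3 times, against 21.0 to 26.8 times in the others).

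In MMTV-Wnt tumors miR-192 read 114, 148, 126 and 21.8, and 2 of 4 were above the floor, with replicate 1 just under it at 2.94 times. One MMTV-H2N tumor was above it, replicate 2 at 287 and 4.69 times the floor, and the other 4 read 39.5 to 57.8. In Brca1-/-p53+/- tumors the signal was 77.0, 148, 57.0, 457 and 106, and replicates 2 and 4 were above the floor. The spots of replicate 4 read 424 to 504, while those of replicate 2 were uneven and read 43.0, 79.3, 100.5 and 1418. The measured values of Brca1-/-p53+/- tumors were higher than those of normal gland with median scaling (limma adjusted p = 0.00026) and with floor scaling (0.0444), and the call was lost with quantile normalization (0.105). Of all miRNAs 70.1% passed in this comparison with median scaling and 62.3% with floor scaling. No fold is given, because 3 of 5 tumors and all 5 normal glands were not above the floor.

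MMTV-Hras (29.1 to 68.2), MMTV-C-Myc (44.2 to 126), p53-/- (79.0 to 159) and C3TAg (109 to 304) had no array above the floor for miR-192. The signals of C3TAg and p53-/- are higher numbers than those of normal gland, but so are their floors, at 92.7 to 241 and 61.4 to 114 against 21.3 to 34.6. Expressed over the floor, these 2 groups lay at 1.03 to 1.57 and 1.09 to 1.43, which overlaps the 1.05 to 1.45 of normal gland.

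miR-215, from the cluster on chromosome 1 and with the seed of miR-192, was above 3 times the floor on 3 arrays, in 3 models, and above 2 times the floor on 9. Brca1-/-p53+/- replicate 4 had a signal of 1105, 7.53 times its floor, against 42.2 to 120 in the other 4 tumors. Its 4 spots read 1043, 1084, 1086 and 1213. MMTV-PymT replicate 3 had 252, or 10.7 times its floor, and MMTV-H2N replicate 5 had 237, or 4.39 times. MMTV-PymT replicates 1, 2 and 4 lay just under the limit, at 2.91, 2.78 and 2.87 times the floor. With floor scaling the measured values of MMTV-PymT passed as higher than those of normal gland (limma adjusted p = 0.0428, beside 43.1% of all miRNAs) and of the other luminal models (0.0104, beside 43.4%), and with median scaling they passed in neither (0.647 and 0.709). The floor-scaled median differences over all miRNAs were 0.44 and 0.71. In normal gland the signal was 35.0, 21.98, 31.7, 52.6 and 29.9, or 1.03 to 1.61 times the floor. MMTV-Hras (0.94 to 1.26 times), MMTV-C-Myc (0.95 to 1.34), MMTV-Wnt (0.72 to 2.15), p53-/- (1.12 to 1.77) and C3TAg (1.02 to 1.38) had no array above 3 times the floor. The measured values of Brca1-/-p53+/- tumors passed as higher than those of normal gland with median scaling (limma adjusted p = 0.00043) but not with floor scaling (0.0976) or quantile normalization (0.134). Of all miRNAs 70.1% passed there with median scaling and 62.3% with floor scaling. No fold is given, because 4 of 5 tumors and all 5 normal glands were not above the floor.

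The pair with 1 seed did not always move together in single tumors. MMTV-H2N replicate 5 had miR-215 at 4.39 and miR-192 at 1.07 times the floor, and its 4 miR-192 spots read 55.2 to 59.6. MMTV-Wnt replicates 2 and 3 had miR-192 at 4.63 and 4.94 times and miR-215 at 0.98 and 0.72 times. Brca1-/-p53+/- replicate 4 and MMTV-PymT replicate 3 had both. Most arrays enter the following correlations with readings near the floor, since miR-192 and miR-215 were both above it on 2 of 46 arrays, so they describe measured values. With the group means removed, the median-scaled values of miR-192 and miR-215 correlated over the 46 arrays (r = 0.53, permutation p = 0.00592, adjusted over 3 pairs 0.00888, rho = 0.50, permutation p = 0.0035, adjusted 0.0105), as did miR-192 and miR-194, neighbours on chromosome 19 (r = 0.51, permutation p = 0.0044, adjusted 0.00888, rho = 0.39, permutation p = 0.0172, adjusted 0.0258). For miR-194 and miR-215, neighbours on chromosome 1, r was 0.34 (permutation p = 0.11, adjusted 0.11) and rho 0.31 (permutation p = 0.0797, adjusted 0.0797). Without the 2 arrays farthest from the median of the first miRNA of each pair, r was 0.50, 0.53 and 0.26. Arrays share a scale, and over all 55611 pairs of miRNAs the median r was 0.06, with 5.83%, 6.5% and 17.6% of pairs higher than these 3. Scaled to the floor, r was 0.50, 0.49 and 0.31 (permutation p adjusted 0.0517, 0.0132 and 0.103).

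**Figure D3:**
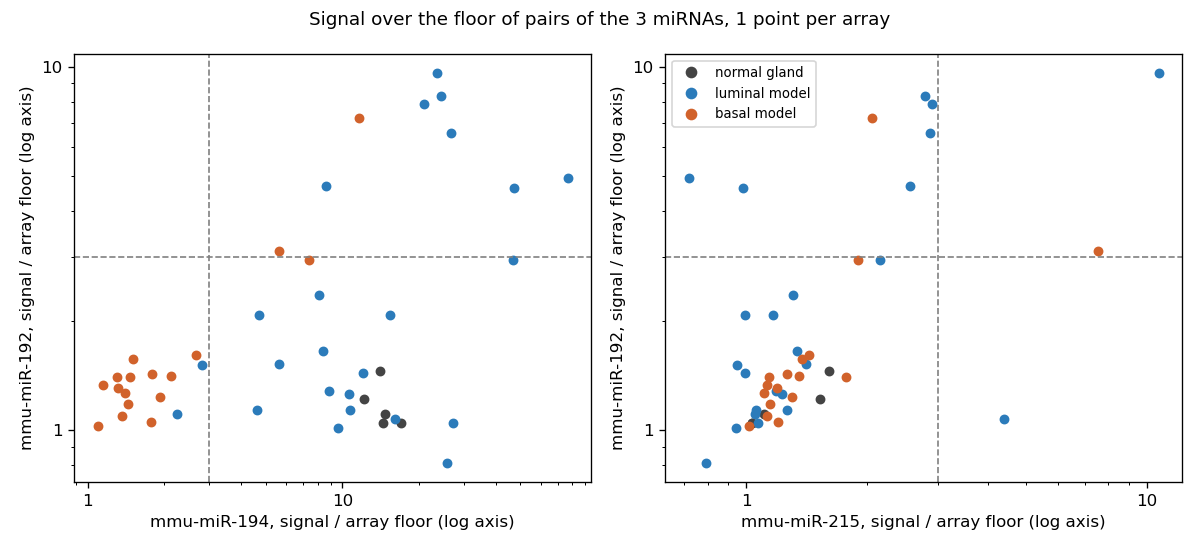
Signal over the array floor of mmu-miR-192 against mmu-miR-194 and against mmu-miR-215 (log axes), 1 point per array coloured by class, with dashed lines at 3 times the floor. No array lies above the line for miR-192 without also lying beyond it for miR-194, and 1 luminal array has miR-215 beyond its line with miR-192 at 1.07 times the floor. Most arrays other than p53-/- and C3TAg lie beyond the line for miR-194.

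The study's main contrast sets basal against luminal tumors. On the median scale miR-192 was higher in basal tumors by 2.16 ± 0.33 (SE, limma adjusted p = 1.17e-07, 17 against 24 tumors) and miR-215 by 2.58 ± 0.35 (7.9e-09), and miR-194 differed by −0.02 ± 0.24 (0.949). Single tumors were the unit, with no term for model, so the p-values in this paragraph measure the spread between tumors and not between models. Of all miRNAs 70.7% passed in this comparison, and the median difference over all was 0.55. The floor gives another picture for the same tumors, with miR-192 above it on 2 of 17 basal and 7 of 24 luminal arrays, miR-215 on 1 and 2, and miR-194 on 3 and 22. Scaled to the floor the differences were −0.47 ± 0.31 for miR-192 (limma adjusted p = 0.171), −0.05 ± 0.27 for miR-215 (0.872) and −2.65 ± 0.37 for miR-194 (2.78e-08), beside a median over all miRNAs of −2.08 and 76.0% called. Most of the values compared for miR-192 and miR-215 are readings near the floor, and none of these differences is a fold. The directions for miR-192, miR-215 and miR-194 all turned with the scaling, and the call for miR-194 appeared only with some scalings. Of 24 alternative settings, the direction was reversed in 11 for miR-194, 3 for miR-192 and 2 for miR-215.

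**Figure D4:**
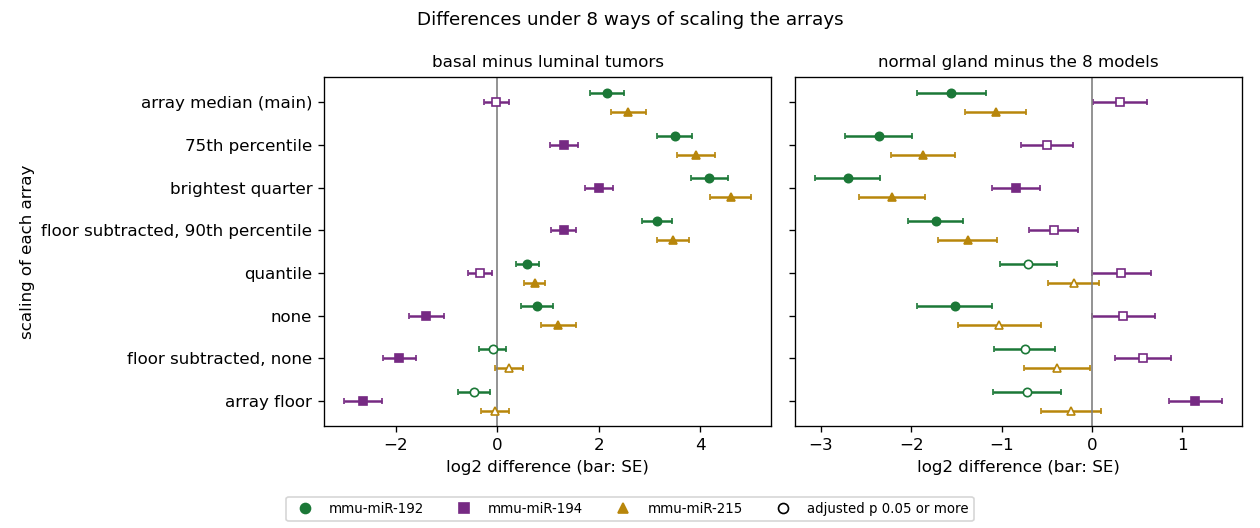
Log2 difference (point) and SE (bar) of the 3 miRNAs between basal and luminal tumors and between normal gland and the mean of the 8 models, under 8 ways of scaling each array, with open symbols where the adjusted p is 0.05 or more. Between basal and luminal tumors mmu-miR-194 runs from −2.65 with the array floor to 2.00 with the mean of the brightest miRNAs, and mmu-miR-192 from −0.47 to 4.18.

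Taken by model, the median-scaled levels of miR-192 and miR-215 were above the mean of the 5 luminal models in each basal model past the threshold, where 79.3% (C3TAg), 78.4% (p53-/-) and 58.7% (Brca1-/-p53+/-) of all miRNAs passed, and miR-194 passed in none. For C3TAg and p53-/- these calls compare arrays at the floor, and no fold is given. Over all 36 pairs of groups miR-192 passed in 23 and miR-215 in 28 with median scaling, beside 56.2% of the tests over all miRNAs, and in 10 and 7 with floor scaling, beside 54.2%. Most of these pairs hold groups with few or no arrays above the floor. On the median scale the order for miR-192 began with C3TAg, p53-/- and Brca1-/-p53+/- and ended with MMTV-Wnt, and no pair of neighbours differed beyond its spread (limma adjusted p 0.0579 to 0.986). For miR-215 the order began the same way, and of its 8 pairs of neighbours p53-/- with Brca1-/-p53+/- (limma adjusted p = 0.0123) and MMTV-Hras with MMTV-Wnt (0.021) differed, each pair with at most 1 array above the floor.

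The contrast of normal gland with all 8 models, each model weighted equally, gave a median-scaled difference of −1.56 ± 0.38 for miR-192 (SE, limma adjusted p = 0.000461), −1.07 ± 0.34 for miR-215 (0.00538) and 0.31 ± 0.30 for miR-194 (0.365), with 65.3% of all miRNAs called and a median of −0.20. With floor scaling the values were −0.72 ± 0.37 (limma adjusted p = 0.0953), −0.23 ± 0.33 (0.54) and 1.14 ± 0.29 (0.00105), with 58.1% called and a median of 0.63. On both scales normal gland was lower than the mean of the models for miR-192 and miR-215 and higher for miR-194, though not past the threshold in each case. Single models went the other way. With median scaling MMTV-Hras and MMTV-Wnt lay below normal gland for miR-192 and miR-215, and MMTV-Wnt above it for miR-194. With floor scaling C3TAg, MMTV-Hras, MMTV-C-Myc and MMTV-Wnt lay below it for miR-215, and MMTV-Wnt and MMTV-PymT above it for miR-194. For miR-192 and miR-215 the differences given are between measured values and are not folds, since no normal gland, C3TAg or p53-/- array was above the floor for either, and for miR-194 no C3TAg or p53-/- array was. These contrasts share the normal gland arrays and are not independent of the single-model ones.

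Other miRNAs linked to p53 give the setting for these values. A list of 8 held miR-34a, miR-34b and miR-34c, which are transcribed from p53 target genes, miR-107 and miR-145, which p53 induces, and miR-143, miR-16 and miR-15a, whose processing or transcript is tied to it. miR-34a was above the floor on all 46 arrays, at 13.1 to 31.1 times the floor in the 7 p53-/- tumors and 5.52 to 16.8 times in C3TAg. miR-107 and miR-145 were also above it on every array. miR-34b and miR-34c were detected in much the same groups as miR-194, with 0 and 1 of 7 arrays above the floor in p53-/-, 0 of 5 for each in C3TAg, 2 of 4 for each in MMTV-C-Myc, 4 and 5 of 5 in Brca1-/-p53+/- and all arrays in the other groups.

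miR-34b lay at 26.6 to 160 times the floor in MMTV-Wnt tumors, which overlaps the 3.95 to 33.5 times of MMTV-PymT, against 8.30 to 16.1 in normal gland and 1.11 to 1.49 in p53-/-. Between basal and luminal tumors 6 of the 8 passed on the median scale, 1 higher (miR-34c) and 5 lower, a share near the 70.7% over all miRNAs, with a list median of −0.89 beside 0.55 over all miRNAs. With floor scaling all 8 were lower, miR-34c included (76.0% of all miRNAs called), with a median of −3.51 beside −2.08. Normal gland was higher than the models for 5 of 8 with median scaling (list median 1.25), near the 65.3% of all miRNAs called, and for 8 of 8 with floor scaling (2.09), where 58.1% of all were called.

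**Figure D5:**
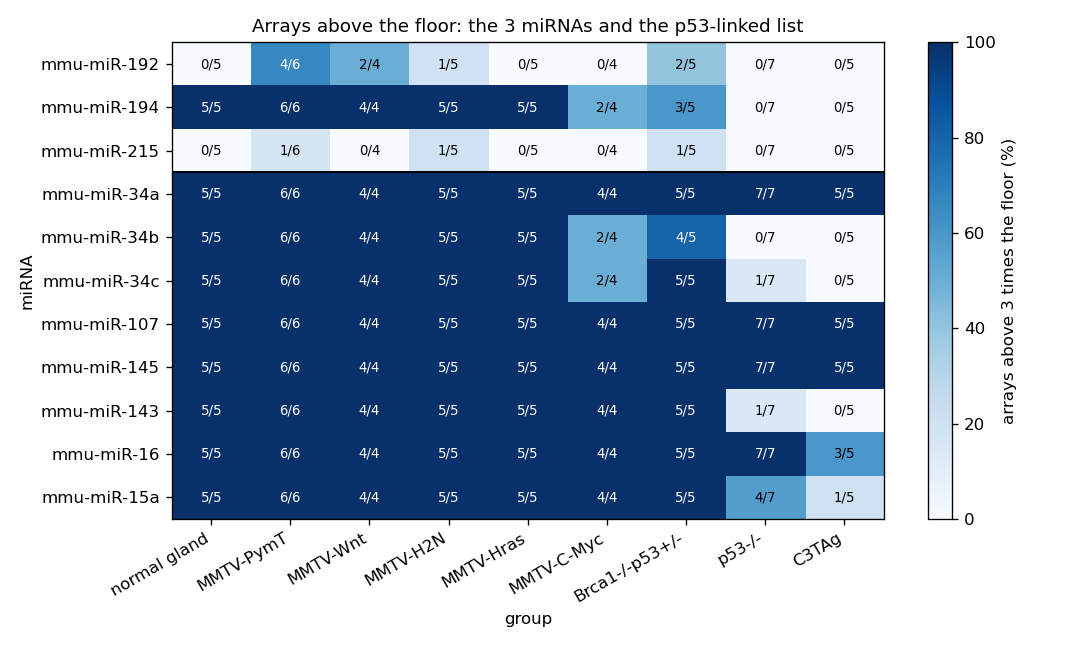
Arrays above 3 times the floor as a share of each group's arrays (shade and counts) for the 3 miRNAs, above the black line, and for the 8 miRNAs of the p53-linked list. The rows of mmu-miR-194, mmu-miR-34b and mmu-miR-34c are full in normal gland and in 4 luminal models and at 0 or 1 array in p53-/- and C3TAg.

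The miRNAs with the most similar pattern were found by the Pearson correlation of the 9 median-scaled group means, as a description of 9 points that share arrays and scaling. For miR-194 they were miR-206 (0.70), miR-34b (0.68), miR-383 (0.67), miR-497 (0.63) and miR-205 (0.62). With floor scaling they stood, in the same order, at 0.95, 0.99, 0.93, 0.93 and 0.85. How high other miRNAs stood on that scale was not examined. For miR-192 they were miR-216b, miR-190, miR-363, miR-668 and miR-763 (0.98 to 0.99), above the floor on 5 to 16 arrays. For miR-215 they were miR-686, miR-363, miR-718, miR-384 and miR-219 (0.98 to 0.99), above it on 0 to 17 arrays. The lists for miR-192 and miR-215 thus hold mostly miRNAs that were themselves seldom above the floor.

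Markers of other organs were read beside the family because it is abundant in gut, liver and kidney. Of 5 such miRNAs, miR-208 (heart) and miR-217 (pancreas) were above the floor on no array. miR-122a, a liver miRNA, was above it on 45 of 46 arrays, at 14.6 to 24.1 times in MMTV-PymT, 38.5 to 111 times in MMTV-Wnt and 10.3 to 63.9 times in normal gland. The rest of the 5, miR-216 and miR-124a, were each above it on some arrays and enter only the following counts and sums. The list held no marker of gut or kidney. In normal gland, MMTV-C-Myc and MMTV-H2N, 2 of the 5 were above the floor on every array. Combinations of miRNA and array above it were 11 of 30 in MMTV-PymT, 9 of 20 in MMTV-Wnt and 10 of 25 in normal gland. The summed signal of the 5 ran from 812 to 1609 in MMTV-PymT, 1201 to 3934 in MMTV-Wnt, 620 to 4096 in Brca1-/-p53+/- and 517 to 2069 in normal gland. Their part in the levels of the 3 miRNAs was not tested.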

How the data were processed

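RNA was labelled with Hy3 and read by the authors on a custom array, of which they kept plus-strand mouse probes and scaled each array to its median. All values come from the deposited raw table of spot intensity in array units. The deposited matrix of log2 values was checked to equal the log2 intensity minus the array median plus a constant (spread at most 1e-08). 1 column of the raw table that belongs to no listed sample was not used.

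Log2 intensities were centred on the median of an array's 1336 spots, then averaged over each miRNA's 4 spots. Signals are geometric means of 4 spots, unscaled. The two-sided test was limma's (version 3.58.1, R 4.3.3, lmFit then eBayes). Its p-values were adjusted by Benjamini-Hochberg over all 334 miRNAs, and 0.05 was the limit. The study's classes, basal and luminal, were compared as single tumors, and other contrasts came from 1 mean per group over all 46 arrays. The test was run on simulated data first. The floor rule was first chosen after seeing the data. Where a group had no array above the floor, no fold is given and only the test of measured values is reported. Correlations used 100000 two-sided permutations of arrays within groups. The named miRNAs are the 3 members, the p53-linked list and, per member, the 5 with the most similar group means. The members and lists were chosen with earlier results of these data known. The number of arrays limits the precision. Arrays with the same replicate number were not paired (mean correlation 0.028 for arrays of 1 number and −0.0056 for others), and no pair of arrays was a duplicate (highest correlation 0.98). Alternatives were other scalings, the deposited table, a filter on dim miRNAs, the median of spots, array weights, blocks, and leaving out replicates or models.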

Additional observations from a re-analysis of the deposited data

Results flagged for a closer look

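In C3TAg tumors, replicate 2 had a median-scaled log2 level of miR-194 of −0.15, apart from 0.05 to 0.10 in the other 4, so 1 sample lay far from its group. All 5 arrays were at 1.10 to 1.51 times the floor. In MMTV-C-Myc tumors, replicate 3 had a median-scaled level of miR-215 of −3.16, apart from −1.86 to −1.71 in the other 3, and all 4 arrays were at 0.95 to 1.34 times the floor. Chance marks about 1 in 20 such groups.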

How the results depend on the processing

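Of 766 recomputed values over 24 results, 660 kept their direction and their side of the threshold. Another 36 were reversed, 52 gained a call, 15 lost one and 3 counts moved. Most of the 766 left out 1 array, and these seldom changed. Other settings, such as scalings, changed more often. For basal minus luminal, 21 of 24 such settings kept the result for miR-192 and for miR-215, and 9 of 24 for miR-194.

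For basal minus luminal tumors, miR-192 turned to −0.47 when scaled to the array floor and −0.0918 after subtracting the floor unscaled, and miR-215 turned to −0.0469 with the floor and was 0.23 without a call after subtracting it unscaled. miR-194, at −0.02 in the main setting, passed at −1.40 with no scaling, −2.65 with the array floor and −1.93 after subtracting the floor unscaled. It turned to 1.32 with the 75th percentile, 2.00 with the brightest miRNAs, 1.30 with the 90th percentile after floor subtraction, 0.12 with array weights, 0.0467 in FVB tumors only, and 0.0498, 0.0699, 0.0995 and 0.0156 without MMTV-H2N, MMTV-Wnt, Brca1-/-p53+/- and MMTV-PymT. With 1 array left out it ran from −0.11 to 0.10. With replicate number as a block (numbers that do not pair the samples) it was 0.0192, and that block changed no other call named here except miR-192 in MMTV-PymT minus normal gland, 1.28 with an adjusted p of 0.0109 by limma.

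For normal gland minus the models, miR-192 lost its call at −0.70 with quantile normalization, −0.72 with the array floor and −0.74 after subtracting the floor unscaled, and miR-215 at −0.20, −0.23 and −0.39 and at −1.03 with no scaling. miR-194 passed at 1.14 with the floor and turned to −0.50, −0.84 and −0.42 with the 75th percentile, the brightest miRNAs and the 90th percentile after floor subtraction. miR-194 in Brca1-/-p53+/- minus normal gland turned to 0.90, 1.53 and 1.22 in those settings, and in MMTV-C-Myc minus the other luminal models to 0.0322 with the median of spots and up to 0.15 with 1 array left out (from −0.65). miR-215 in MMTV-PymT minus the other luminal models turned to −0.14 with the 75th percentile and −0.0183 with the 90th after floor subtraction. With 1 array left out it ran from −0.12 to 0.39, and minus normal gland from −0.0552 to 0.49, with both lowest values without MMTV-PymT replicate 3.

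The precision of the values as a term, chosen after seeing the data, gave for basal minus luminal 0.0647 for miR-194 and, with the array floor, −0.51, −2.41 and −0.25 for miR-192, miR-194 and miR-215. It gave −0.36 for miR-194 in MMTV-Wnt minus normal gland, and with the floor −0.71, 1.08 and −0.24 for normal gland minus the models (miR-192, miR-194, miR-215). Arrays above 2 times the floor were 14 for miR-192 and 9 for miR-215. The p53-linked list had 8 called in normal gland minus the models with the floor, against 5. The filter on dim miRNAs removed miR-192 and miR-215 before the test. Signal over background limits both of them on nearly all arrays, and all 3 on C3TAg and p53-/- arrays.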
